A study of Mus musculus with 3 samples.

Results

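The BRD genes encode proteins that carry a bromodomain, a fold that binds acetylated lysine. The list was drawn up by gene name, with earlier results of these data known: Brd2, Brd3 and Brdt of the BET family, and Brd1, Brd7, Brd8 and Brd9. The table held all 7 among its 15311 genes, and all 7 were among the 13829 genes tested. RNA-seq of oligo(dT)-selected RNA gave 3 libraries of mouse embryonic stem (ES) cells, 1 labelled K3R3 and 2 labelled wild type (WT). The K3R3 cells expressed the histone variant H2A.Z with 3 C-terminal lysines changed to arginine and fused to yellow fluorescent protein (YFP). The WT cells expressed the unchanged H2A.Z fused to YFP. In both, the transgene came from a lentivirus, stood under a CMV promoter controlled by doxycycline, and was induced before YFP-positive cells were sorted. In both, a hairpin targeted the 3′ UTR of the cells' own H2A.Z transcript, so the WT libraries are not from unmodified cells. The labels name KH2 as the parent ES line in the protocol and V6.5 as the strain, and do not say whether a line was 1 clone or a pool.

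A bromodomain protein reads histone acetylation and brings other proteins to the marked chromatin. BET proteins carry paired bromodomains and an extraterminal region, and are known for their link to transcription elongation. BRD2 is known to bind chromatin that holds H2A.Z and acetylated histone H4, and the title of the series names it as the protein that H2A.Z ubiquitylation opposes. The other BRD proteins act inside larger complexes. BRD1 (also BRPF2) is a scaffold of histone acetyltransferases, BRD7 belongs to the remodeller PBAF, BRD9 to non-canonical BAF, and BRD8 to the acetyltransferase complex NuA4/TIP60.

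The labels give the hairpins below, shown because both groups were made with a hairpin against H2A.Z. They do not say which one these 3 libraries carried. Each 21-base sequence matched GENCODE M21 transcripts of H2afz on the sense strand, 3 transcripts for hairpin 2 and 2 for hairpin 5, and matched no transcript of the BRD genes. Both also matched 1 transcript each of Tmcc1 and Gm26623 on the antisense strand.
hairpin 2: aacagctgtccagtgttggtg
hairpin 5: aattagccttccaaccaacca

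The K3R3 library held 24718223 counts and the WT libraries held 21614693 and 25426228. The WT libraries differed from each other by more than counting noise (chi-square per degree of freedom 24.3 over genes) and were kept as separate samples. The same measure was 30.2 for K3R3 against WT replicate 1 and 21.0 for K3R3 against WT replicate 2. Whether the WT libraries are separate cultures is not stated in the labels. The spread behind the p-values is therefore that of these 2 WT libraries and could be technical. H2afz, the targeted gene, had 221.6 CPM (counts scaled to a library total adjusted by TMM) in K3R3, against 219.1 and 231.6 CPM in WT, a fitted log2 difference of -0.02 (SE 0.19). Reads of the transgene and of the endogenous gene were not told apart here, and the hairpin was in both groups, so this level checks neither the knockdown nor the labels. H2afv, the gene of the paralogue H2A.Z.2, had 30 CPM in K3R3, against 37.1 and 31.2 CPM in WT.

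Transcript levels of the 7 genes were set side by side as RPKM, which divides reads by gene length and library size, since only values per length can be compared between genes. Brd2 had by far the most transcript. It had 78.6 RPKM in K3R3, against 80.0 and 70.4 RPKM in WT, which lay above 95.1% to 95.9% of all genes in the table. Brd8 followed with 39.0 RPKM in K3R3, against 39.6 and 41.3 RPKM in WT. Next came Brd7 with 32.5 RPKM in K3R3, against 30.3 and 33.2 RPKM in WT. These 3 levels did not overlap between genes in any pair of libraries.

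Brd1, Brd3 and Brd9 lay close together. Brd1 had 13.3 RPKM in K3R3, against 15.3 and 15.2 RPKM in WT. Brd3 had 14.4 RPKM in K3R3, against 14.3 and 13.4 RPKM in WT. Brd9 had 13.0 RPKM in K3R3, against 13.9 and 12.4 RPKM in WT. The ranges of Brd1 and Brd3 over the 3 libraries overlapped, as did those of each with Brd9, so the order among these genes did not exceed the spread between libraries. Both WT libraries had the order Brd1, Brd3, Brd9, whereas K3R3 had Brd3, Brd1, Brd9.

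Brdt, whose protein is known from male germ cells, where it takes part in the compaction of spermatid chromatin, stood far below the others. It had 0.887 RPKM in K3R3, against 0.371 and 0.631 RPKM in WT. Its 154 counts in K3R3 give a 95% exact Poisson interval of 0.753 to 1.04 RPKM, and its 57 and 113 counts in WT give 0.281 to 0.480 and 0.520 to 0.759 RPKM. These intervals, and the others called exact or counting intervals in this text, cover counting error only. Reads without molecular identifiers are not independent molecules. All 7 genes carried the authors' code for an active promoter. Of the 11538 genes with that code, 16.1% had a lower RPKM than Brdt in K3R3, against 11.7% and 15.9% in WT.

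**Figure D1:**
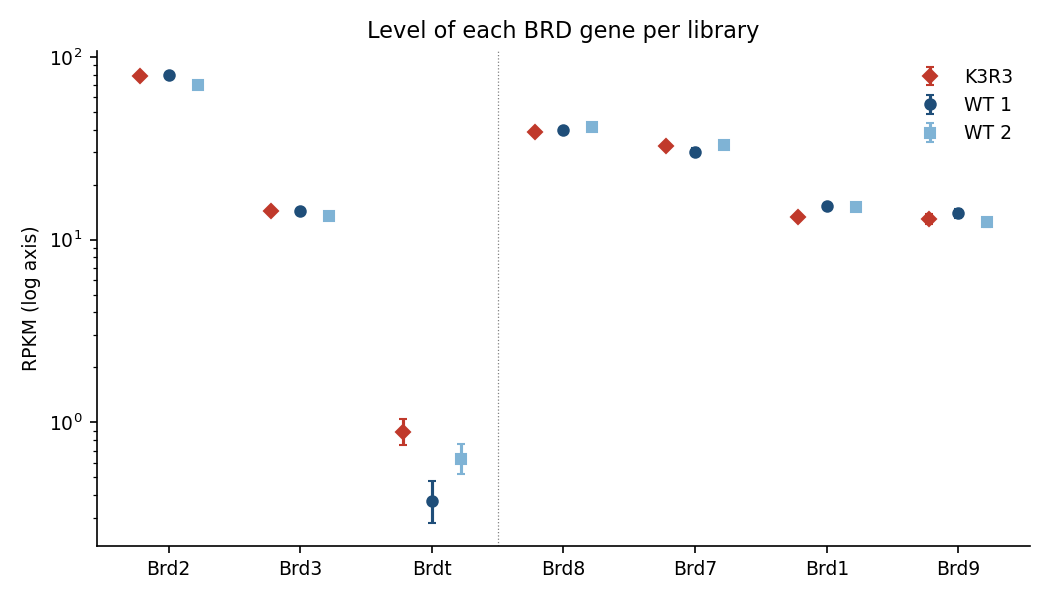
Level of each BRD gene in RPKM, on a log axis, in the K3R3 library and in WT libraries 1 and 2; bars are 95% exact Poisson intervals, which cover counting error only, and the dotted line separates the BET genes from the others. Brd2 lies between 70.4 and 80.0 RPKM in the 3 libraries and Brdt between 0.371 and 0.887 RPKM.

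The shares within a library do not depend on how libraries are scaled to each other. Of the summed RPKM of Brd2, Brd3 and Brdt, Brd2 made up 83.8% in K3R3, against 84.5% and 83.4% in WT. Brd3 made up 15.3% in K3R3, against 15.1% and 15.9% in WT. Brd2 and Brd3 in K3R3 thus lay inside the range of the WT libraries. Brdt made up 0.945% in K3R3, above the 0.391% and 0.748% in WT. These shares are over the 3 named genes and not over the whole BET family.

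Per length, Brd2 stood 5.47 times above Brd3 in K3R3, against 5.60 and 5.24 times in WT. The K3R3 ratio lay between the WT ratios, and its counting interval of 5.26 to 5.70 overlapped both of theirs. Brd2 stood 88.6 times above Brdt in K3R3 (95% exact interval 75.6 to 105), against 216 times (167 to 285) and 111 times (92.6 to 135) in WT. The K3R3 interval overlapped that of WT replicate 2, and the WT intervals did not overlap each other.

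Over all 7 genes, Brd2 made up 41.0% of the summed RPKM in K3R3, against 41.3% and 37.7% in WT. Brd8 made up 20.3% in K3R3, against 20.5% and 22.2% in WT, and Brd7 17.0% in K3R3, against 15.6% and 17.8% in WT. Brd1 made up 6.94% in K3R3, below the 7.91% and 8.13% in WT. The sum itself was 192 RPKM in K3R3, against 194 and 187 RPKM in WT. The ratio of Brd1 to Brd3 was 0.925 in K3R3 (95% exact interval 0.877 to 0.977), against 1.07 (1.02 to 1.14) and 1.13 (1.07 to 1.19) in WT. The K3R3 interval lay below both WT intervals, which overlapped each other. Of the other ratios computed among the 7 genes, only that of Brd7 to Brd1 also separated. Its interval was 2.32 to 2.58 in K3R3, against 1.87 to 2.09 and 2.08 to 2.30 in WT. These intervals hold counting error only, and the libraries differed by more than that over all genes. How often other gene pairs separate so was not tested. With 1 K3R3 library these ratios compare the libraries and not the conditions.

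**Figure D2:**
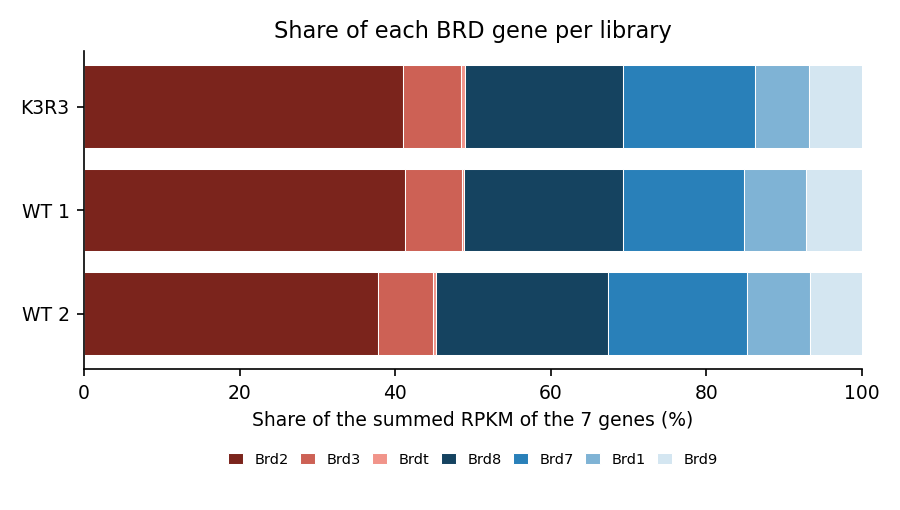
Share of each BRD gene in the summed RPKM of the 7 genes, in percent, in the K3R3 library and in WT libraries 1 and 2. Brd2 makes up 41.0% in K3R3, against 41.3% and 37.7% in WT, and Brdt 0.463% in K3R3, against 0.191% and 0.338% in WT.

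K3R3 was compared with WT over all tested genes with the quasi-likelihood test of edgeR, two-sided, with Benjamini-Hochberg adjustment and a threshold of 0.05. None of the 7 BRD genes passed, beside 2.57% of all tested genes. At an unadjusted p under 0.05 the count was 0 as well, beside 11.2% of all tested genes, and DESeq2 called 0, beside 0.47%. With 7 genes, a count of 0 is near these shares. The smallest adjusted p was 0.681 (Brdt). The spread in this test came from the 2 WT libraries alone. It followed the trend of spread with expression over genes, and not each gene's own gap between the WT libraries. The single K3R3 sample was taken to vary as the WT libraries do. The fold intervals given next come from the same fit and carry the same assumption, but they give a range and not only a call.

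Among the BET genes, Brd2 had 519.7 CPM in K3R3, against 580.2 and 503.0 CPM in WT. K3R3 lay between the WT libraries. The fitted log2 difference was -0.06 (SE 0.18; adjusted p = 0.999 in edgeR's quasi-likelihood fit), with a 95% interval of the fold of 0.753 to 1.22. Against each library alone the log2 difference was -0.16 (WT replicate 1) and 0.05 (WT replicate 2), both smaller than the -0.21 by which WT replicate 2 differed from replicate 1.

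Brd3, whose protein is known to bind acetylated GATA1 as well as histones, had 110.2 CPM in K3R3, against 120.2 and 111.3 CPM in WT. K3R3 lay below both, by a log2 of -0.13 and -0.01, while WT replicate 2 differed from replicate 1 by -0.11. On the RPKM scale K3R3 lay above both, so the direction depended on the scaling. The fitted difference was -0.07 (SE 0.21), with a fold interval of 0.713 to 1.27.

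Brdt had 5.92 CPM in K3R3, against 2.71 and 4.55 CPM in WT. K3R3 lay above both libraries on either scale, as 33.9% of all tested genes did in CPM. The fitted log2 difference was 0.70 (SE 0.45; adjusted p = 0.681 in edgeR's quasi-likelihood fit), with a fold interval of 0.882 to 2.98. It was 1.11 against WT replicate 1 and 0.37 against replicate 2, and WT replicate 2 stood 0.74 above replicate 1. The gap to the nearer WT library was thus smaller than the gap between the WT libraries.

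Brd1 had 96.7 CPM in K3R3, against 122.4 and 119.3 CPM in WT. K3R3 lay below both libraries on either scale, as 34.2% of all tested genes did in CPM. The fitted log2 difference was -0.32 (SE 0.22; adjusted p = 0.715 in edgeR's quasi-likelihood fit), with a fold interval of 0.597 to 1.07. It was -0.34 and -0.30 against each WT library, beside -0.04 between them. The counting interval of the CPM ratio was 0.747 to 0.835 against WT replicate 1 and 0.768 to 0.855 against replicate 2. Of all tested genes, 36.0% had a larger fitted difference in size.

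Brd8 had 258 CPM in K3R3, against 288 and 296 CPM in WT, and K3R3 lay below both on either scale. The fitted log2 difference was -0.18 (SE 0.19), with a fold interval of 0.681 to 1.15, and WT replicate 2 stood 0.04 above replicate 1. Brd7 had 109 CPM in K3R3, against 112 and 120.4 CPM in WT. Its fitted difference was -0.09 (SE 0.21; fold interval 0.704 to 1.26), and on the RPKM scale K3R3 lay between the WT libraries. Brd9 had 44.2 CPM in K3R3, against 52.0 and 45.8 CPM in WT. Its fitted difference was -0.15 (SE 0.26; fold interval 0.634 to 1.29), and on the RPKM scale it also lay between them.

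In CPM, K3R3 lay below both WT libraries for 5 of the 7 genes and above both for 1, beside 34.2% and 33.9% of all tested genes. On the RPKM scale it lay below both for 2 (Brd1 and Brd8) and above both for 2 (Brd3 and Brdt), beside 19.2% and 48.7%. RPKM divides by totals that the counts in the table do not add up to. With those totals the median of all tested genes stood at a log2 of 0.10, against -0.01 with TMM, and the median of the BRD genes at 0.04 against -0.09. Relative to the median of all genes the BRD median was thus slightly lower with either scaling. All 7 genes carried the active code, and the 10984 tested genes with that code had a median of -0.04 with TMM, nearer to that of the BRD genes. In the authors' deposited table, 0 of the 7 genes had an unadjusted p under 0.05, beside 4.86% of all genes, and the lowest was 0.182 (Brd1).

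**Figure D3:**
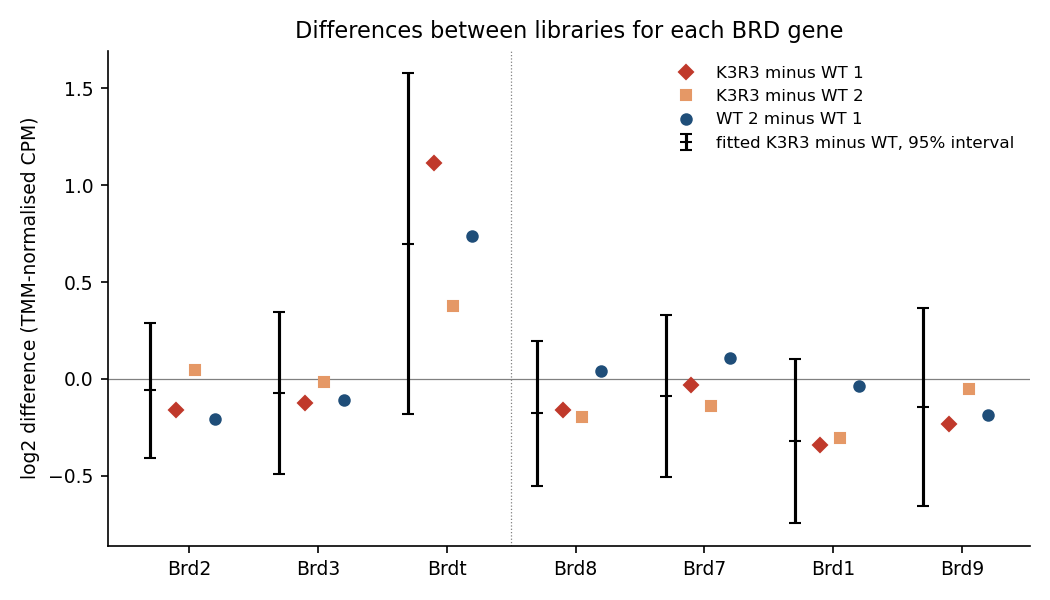
Log2 differences of TMM-normalised CPM for each BRD gene: the fitted K3R3 minus WT value with its 95% interval (black), K3R3 minus each WT library, and WT replicate 2 minus replicate 1. Every fitted interval includes 0, and for Brd2 both single-library differences (-0.16 and 0.05) are smaller than the difference between the WT libraries (-0.21).

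Markers of cell types were read beside these values, since in bulk RNA fewer cells of a type and less RNA per cell cannot be told apart. Of 12 ES cell markers, 4 fell (Sox2, Klf4, Tfcp2l1 and Dppa5a) and 8 did not pass. DESeq2 called only Tfcp2l1 of these, beside 0.47% of all tested genes. In edgeR, 75 of all 13829 tested genes fell and 280 rose. Nanog (0.18) and Lin28a (0.02) lay above 0, and Zfp42 was at -0.05. The median log2 of the 12 markers was -0.36, and their summed level was 2298 RPKM in K3R3, against 3317 and 2558 RPKM in WT. Dppa5a made up the largest part, with 1124 RPKM in K3R3, against 1875 and 1215 RPKM in WT. For Dppa5a the WT libraries differed more from each other than K3R3 did from WT replicate 2. Of 13 fibroblast markers tested, listed because the cells grew on feeders until the last passage, Thy1 rose and the others did not pass, and DESeq2 called 0. Their median was 0.44. K3R3 lay above both WT libraries for 8 of the 13 in CPM, beside 33.9% of all tested genes. On the RPKM scale it did so for 8 as well, beside 48.7%. The summed level of the 13 was 181 RPKM in K3R3, against 220.3 and 191 RPKM in WT, and most of it came from Fn1 and Vim. In CPM these 2 lay below both WT libraries, with differences of -0.49 and -0.40. Pdgfra (-0.22) did so too, which makes 3 of the 13, beside 34.2% of all tested genes. Without Fn1 and Vim, the other 11 summed to 44.0 RPKM in K3R3, against 38.8 and 30.1 RPKM in WT. The direction of the sum thus depended on these 2 genes. For Brdt, 12 genes of spermatogenesis were read as well. Of these, 3 rose: Stra8 (log2 1.60), Tdrd1 (1.80) and Tdrd6 (3.63), which act at entry into meiosis and in the piRNA pathway of germ cells. The value of Tdrd6 rests on 64 counts in K3R3, against 2 and 7 in WT. DESeq2 called only Stra8. Of the 12, 9 had a difference above 0, whereas Dazl (-1.01), Hspa1l (-0.68) and Ldhc (-0.32) lay below 0. The median of the 12 was 0.45 and their summed level was 123 RPKM in K3R3, against 69.1 and 90.3 RPKM in WT. Sycp3 (37.1 RPKM in K3R3) and Ddx4 (34.1 RPKM) made up the largest parts and were not called. Spo11, Prm1, Prm2, Tnp1, Tnp2, Acrv1 and Pgk2 of that list were not analysed here. The part of cell mixture in the BRD levels was not tested.

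Partner genes were listed by complex. Over all 13829 tested genes, 280 rose and 75 fell, and the median was -0.01. Over the 10984 of them with the authors' active code the median was -0.04. Of 30 other bromodomain genes tested, 0 passed, and their median was -0.17. Trim28 (177 RPKM on average in WT) and Trim24 (65.3 RPKM), transcriptional cofactors of the TRIM family, had the highest levels, with differences of -0.23 and -0.17. Trim66 had the largest difference (0.64, SE 0.82), from only 30 counts in K3R3, against 14 and 20 in WT. At an unadjusted p under 0.05 the count was 3 of 30, near the 11.2% of all tested genes. These were Cecr2 (-0.59), Kat2b (-0.52) and Baz2a (-0.46), all lower in K3R3. K3R3 lay below both WT libraries for 19 of the 30 and above both for 4 in CPM, where all tested genes had 34.2% and 33.9%. On the RPKM scale these counts were 12 and 10, where all tested genes had 19.2% and 48.7%.

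BET proteins are known to act with P-TEFb, the kinase that releases paused RNA polymerase II. Of 7 genes of P-TEFb and of the 7SK particle that holds it inactive, 0 passed (median -0.12). Larp7 (34.5 RPKM) and Ccnt2 (32.7 RPKM), a 7SK-binding protein and a cyclin, had differences of 0.03 and -0.34. Hexim1, the inhibitor, had the largest (-0.50, SE 0.26). Of 6 partners of BRD1, 0 passed (median -0.16). Among them Myst2 (44.8 RPKM), the acetyltransferase HBO1, had a difference of -0.03, Myst4 (34.5 RPKM), the acetyltransferase MORF, -0.19, and Ing4, a reader of methylated H3, -0.23. All 6 lay below 0 with TMM, where the median of all tested genes was -0.01. With the totals implied by RPKM the median of the 6 was -0.04, where that of all tested genes was 0.10.

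Of 12 PBAF subunits beside BRD7, 0 passed (median -0.11). Actl6a (80.2 RPKM) and Smarcc1 (68.9 RPKM), core subunits shared with other BAF complexes, had differences of -0.11 and -0.12. Smarcd3 had the largest (0.80, SE 0.48), from 2.03 RPKM in K3R3, against 1.17 and 0.961 RPKM in WT. Of 9 non-canonical BAF subunits beside BRD9, 0 passed (median -0.25), and Gltscr1, a defining subunit, had the largest difference (0.44, SE 0.44). BC032203 was listed as another symbol of a further subunit, which the reference tables did not pair with it, so it was left out of that count. It fell by 0.86 on the log2 scale (adjusted p = 0.0131 in edgeR's quasi-likelihood fit, 0.0565 by DESeq2), with 60.5 CPM in K3R3, against 114.7 and 105 CPM in WT. Of 17 NuA4/TIP60 subunits beside BRD8, 0 passed (median -0.11). Morf4l2 (214 RPKM) and Morf4l1 (83.5 RPKM), close paralogues between which reads could be split, had differences of -0.19 and -0.17, and Vps72, a subunit that binds H2A.Z, had the largest (-0.36, SE 0.34). Several subunits stand in more than 1 of these lists. DESeq2 called 0 members of each of these lists.

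**Figure D4:**
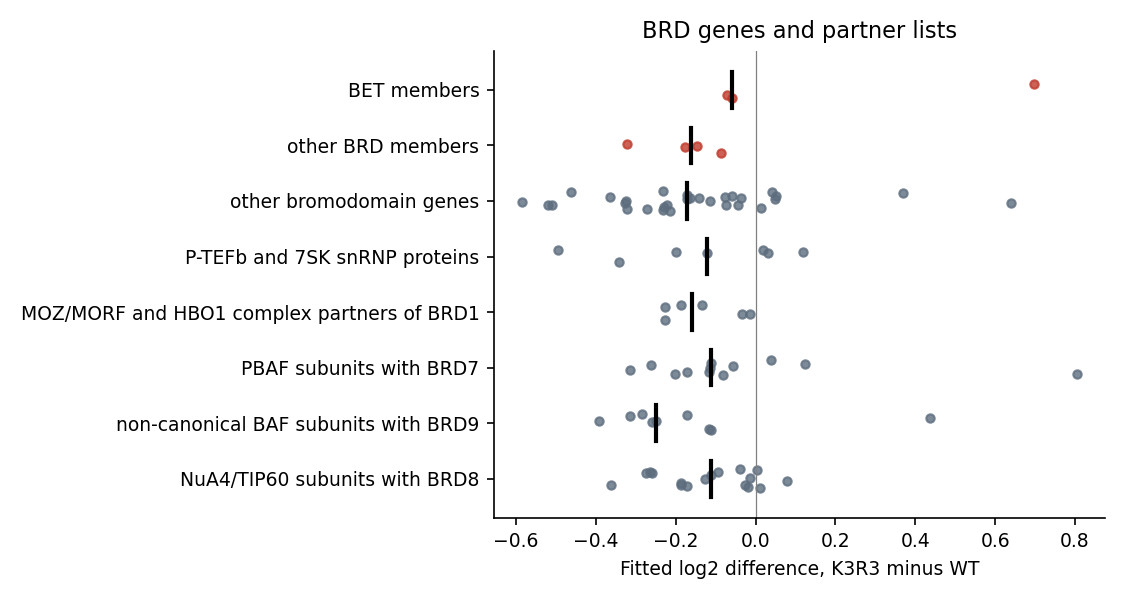
Fitted log2 differences, K3R3 minus WT, of the tested genes in each list, with 1 point per gene and a black line at the median; red marks the 7 BRD genes. The list medians lie between -0.25 and -0.06, and the point at 0.70 among the BET genes is Brdt.

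The genes whose level was most like that of Brd2, by Euclidean distance of log2 RPKM over the 3 libraries, were 1810009A15Rik (0.06), Polr2g (0.07), a subunit of RNA polymerase II, and Nsun2 (0.08), an RNA methyltransferase. Nsun2 had 78.6 RPKM in K3R3, against 75.7 and 70.2 RPKM in WT. With 3 libraries this likeness is mostly one of level.

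The promoters of 6 of the 7 genes were taken from RefSeq (build GRCm38.p6), as windows from 250 bases before to 50 after each start. All held more CpG dinucleotides than the median window. The window of Brdt held 23 CpG and that of Brd3 46, and the windows of Brd2 held 14, 24 and 32, where the median of 32851 windows was 7. Brdt, with the lowest transcript level of the 7, ranked at the percentile 78.5 of windows by CpG count. Both strands were searched for GGGCGG (a GC box, in 35.7% of all windows), CCAAT (37.4%), CACGTG (an E-box, 7.15%) and TATAAA (13.6%). GGGCGG or its reverse complement lay in at least 1 window of Brd1, Brd2, Brd3, Brd7 and Brd9 and not in that of Brdt. The window of Brdt held CCAAT, first base at -61 with the start at 1, and CACGTG at -78, and none of the other genes' windows held either. TATAAA was in none of them. The stretches below show the matches in Brdt and those nearest to a start in Brd2 and Brd3, 5′ to 3′ on the gene's strand, with the match in capitals. A match describes these letters and is not evidence of a bound factor.
Brdt, CCAAT, chr5:107331121-107331150, plus strand: ggcagaccctggCCAATcagcaggctgctc
Brdt, CACGTG, chr5:107331104-107331133, plus strand: cgcaggcacagtCACGTGgcagaccctggc
Brd2, reverse complement of GGGCGG, chr17:34119851-34119880, minus strand: cgcagccaagaacctttcgcCCGCCCcgcc
Brd3, GGGCGG, chr2:27475384-27475413, minus strand: tgcaacaaagcgGGGCGGccgcctgcccgg

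The libraries were strand specific, but whether strand was used in counting was not stated. Where it was not used, overlapping genes could add reads to a gene or take reads from it. In GENCODE M21 the protein-coding H2-DMa overlaps Brd2 on the opposite strand. It had 17 counts in K3R3, against 6 and 3 in WT, beside 13529, 12196 and 12486 for Brd2. How many reads of Brd2 were affected cannot be read from these counts. A processed pseudogene, Gm8152, overlaps Brdt on the opposite strand and was not analysed here.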

How the data were processed

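The members and gene lists were chosen with earlier results of these data known. The deposited read counts are whole numbers per gene. The submitters' processing notes name HTSeq 0.5.4p1 and mm9; the aligner, annotation and counting strand are not given in the sources used here. RPKM values were deposited by the authors and divide each count by gene length and 1 total per library; the counts add up to 66.2% to 67.1% of those totals, and the smallest count was 1. The authors' own comparison was deposited as a ratio, the log2 of that ratio and a p-value without adjustment; the submitters' processing notes name DESeq 1.10.1. By the values the deposited fold and log2 are WT over K3R3 (within 0.00136, relative, of ratios recomputed with DESeq2 size factors), so directions were taken from the counts. The other deposited column used was the class code (active).

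R 4.3.3 and edgeR 4.0.16 were used on the counts: TMM scaling on all rows, a filter at a mean CPM of 0.5, the quasi-likelihood test, and DESeq2 1.42.0 as an alternative. The script was tested on simulated data. SE is the size of the log2 difference over the square root of F. The prior degrees of freedom came out infinite, and the p-values therefore rest on the trend of dispersion with expression. Differences against 1 library are log2 CPM with a prior count of 1 and no test. Named genes were all members, and from each list called genes, or the 2 highest in WT RPKM and the largest difference. Other symbols counted only where RefSeq pairs them. Alternatives were other scalings, filters and tests, and leaving out each WT library.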

Additional observations from a re-analysis of the deposited data

How the results depend on the processing

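No paired analysis was possible because there is only 1 K3R3 library. The count of BRD genes called stayed at 0 under every scaling, filter and test tried, with smallest adjusted p-values of 0.497 to 1.00 (edgeR with the totals implied by RPKM, and DESeq2). Without a WT library no residual degrees of freedom remain, so only values are given. Over all genes 355 were called, and DESeq2 called 65; the cause was not tested. With the implied totals 515 were called, 90.3% of them higher, against 78.9% with TMM. With those totals the fitted differences of Brd2, Brd3 and Brd7 reversed to 0.065, 0.053 and 0.036, below the median of all tested genes (0.10). Leaving out 1 WT library moved Brd2 between -0.16 and 0.047. Under the implied totals the differences against WT replicates 1 and 2 were -0.21 and -0.19 for Brd1, and 0.0088 and 0.10 for Brd3. They were 0.10 and -0.028 for Brd7, and -0.024 and -0.084 for Brd8. For Brd9 they were -0.10 and 0.062, where the value against replicate 2 was -0.051 with TMM. For Brd2 they were -0.025 and 0.16. In shares of raw counts, without length, Brd2 made up 81.7% of the BET genes in K3R3, against 81.9% in WT on average, and 45.4% of all 7 in K3R3, against 43.7% in WT. Counting error weighs most on Brdt, which had 154 counts or fewer per library.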
